A study of Mus musculus with 10 samples.

Results

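The genes described here encode subunits of the glutamate and GABA receptors and of the glycine receptor of mouse cortical neurons. Members were the probe sets named with a single gene symbol in the platform annotation whose symbol began with Gria, Grik, Grid, Grin1 to Grin3, Grm, Gabra, Gabrb, Gabrd, Gabrg, Gabbr, Glra or Glrb followed by a digit, and which were present on both array designs of the study. This rule found 28 of the 9977 probe sets shared by the designs, and these stood for 23 of 7417 named genes, in 10 receptor families. Of the 28, 22 probe sets of 18 genes had a mean signal high enough to be tested. The other 6 probe sets, of Gria4, Grin2a, Gabra3, Gabra6 (both of its probe sets) and Gabrd, lay among the 30% with the lowest mean signal and were not tested.

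The 4 groups were primary neocortical neurons exposed to 1 µM lactacystin, an inhibitor of the proteasome, for 24 h (3 arrays) or 48 h (3 arrays), and control neurons at 24 h (2 arrays) and 48 h (2 arrays). All cultures were prepared from Swiss albino mouse foetuses of gestation day 15 to 16, and lactacystin was added on day 5 in vitro in a medium without serum. The lactacystin stock was made in DMSO, and the labels do not state whether DMSO was given to control cultures or whether replicates of a group were separate cultures, so the p-values measure only the spread between these samples. RNA was measured on Affymetrix arrays of the U74A design (4 arrays: the treated culture numbered 1 at 24 h, the treated culture numbered 3 at 48 h, and the control numbered 1 at each time) and of its revision U74Av2 (the other 6 arrays).

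Glutamate is the main excitatory transmitter of the cortex and GABA the main inhibitory one. AMPA, kainate and NMDA receptors are cation channels opened by glutamate and built of 4 subunits each, metabotropic glutamate receptors and GABA-B receptors act through G proteins, and GABA-A and glycine receptors are chloride channels built of 5 subunits. Which subunits a neuron makes sets the ion permeability, kinetics and drug sensitivity of its receptors, and the set changes as cortical neurons mature.

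Of the marker lists, 8 of 10 neuron markers and 3 of 3 markers of excitatory neurons lay above the background level, as did 6 of 8 GABAergic neuron markers. Of other cell types, 6 of 8 astrocyte markers, 4 of 7 fibroblast and mural markers, 3 of 6 oligodendrocyte markers, 2 of 10 microglia markers and 0 of 5 endothelial markers lay above it. The background level is the 90th percentile of the mean scaled signal of 31 genes that belong to other tissues such as liver, testis and lens, 152.2 on U74A and 139.4 on U74Av2 (144.5 over all arrays, the level used for the marker means). Values below are scaled signals on a linear scale, in order of replicate number, and signals of different probe sets are not compared as levels, since probes differ in brightness. The log2 changes are lactacystin minus control on the log2(signal + 32) scale, with array design taken out, and understate the change of dim probe sets; each comes with its SE and an adjusted p from limma's moderated test with Benjamini-Hochberg adjustment over the 6984 probe sets tested, called below 0.05.

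In these cultures 11 of the 28 members lay above the background level on all 10 arrays, 12 on none and 5 on some. The share of all shared probe sets above this level was not counted. Their median mean signal was 184, above the level of 144.5 over all arrays, and that of the members was 116, below it. Members above the background level throughout were Gria1 (92943_at), 3 probe sets of Gria2, Grik5, Grid1, Grin2c, Gabra2, Gabrb1, Gabbr1 and Glra1. Those above it on no array were Gria3, Gria4, Grik1, Grin2a, Grin2b, Grm8, Gabra3, both probe sets of Gabra6, Gabrd, Gabrg1 and Gabrg3. Gabrd, whose product is found in extrasynaptic GABA-A receptors, had a signal between 9.23 and 18.7 on every array, and Gabra6, known from cerebellar granule cells, had 2.19 to 32.5 by one probe set (92939_at) and 22.9 to 54.0 by the other. A signal below this level does not show that a transcript was absent, since a dim probe set can also come from a poor probe. Nor does a signal above it show expression. By their means 4 of the 31 genes of other tissues also lay above it, up to 354 (Lhb), which no value of Grin2c or Glra1 reached. A second limit is the array design. On the log2(signal + 32) scale, 12 of the 28 members were more than 0.5 log2 higher on U74A than on U74Av2. None was lower by that much, and the differences lay between -0.37 and 1.61 log2. The median over all shared probe sets was also higher on U74A, at 207 against 165 on U74Av2. The share of all probe sets with such a difference was not counted. The 4 members with a difference over 1 log2 were Gria1 (92944_at), Grik2 (98864_s_at), Gabra3 and Gabrb2.

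**Figure D1:**
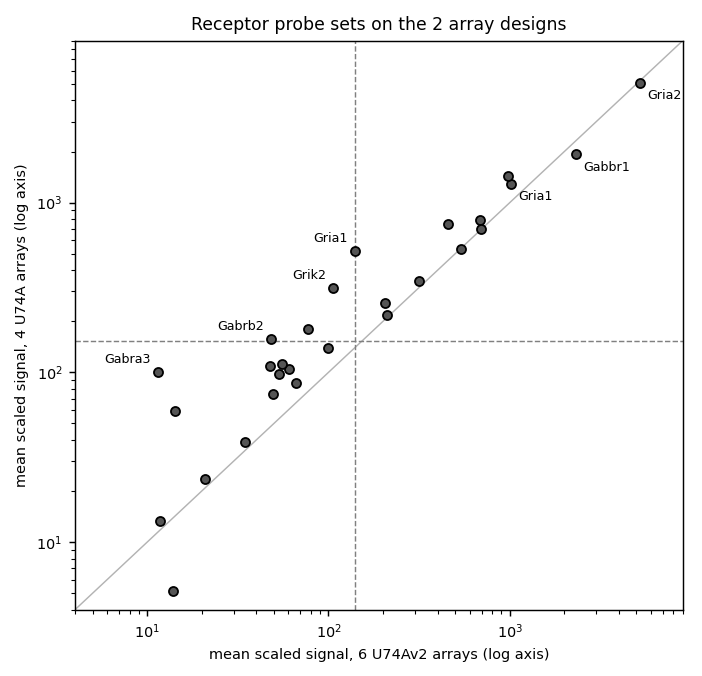
Each point is 1 of the 28 receptor probe sets, with its mean scaled signal on the 6 U74Av2 arrays (x axis, log scale) and on the 4 U74A arrays (y axis, log scale). The grey line marks equal signal and the dashed lines the background level of each design. Gabra3, Gabrb2, Grik2 and Gria1 (92944_at) had a design difference over 1 on the log2(signal + 32) scale. Distance from the line follows the signal without the added 32, so dimmer members such as Gria4 can stand as far above it.

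At 24 h of lactacystin, 5 of the 22 tested receptor probe sets were lower than in controls and 0 were higher. They belonged to Gria1, an AMPA receptor subunit, Grik2, a kainate receptor subunit, Gabra2 and Gabrb2, an alpha and a beta subunit of GABA-A receptors, and Gabbr1, the GABA-binding subunit of GABA-B receptors. Of all 6984 tested probe sets 14.9% were called at 24 h, 6.66% lower and 8.2% higher. Of the 22 members 21 had a change below 0, as did 3798 of the 6984 tested probe sets. The members had a median of -0.40 log2 against -0.03 over all tested probe sets. Counted with the brightest probe set of each gene, 3 of 18 genes were called, since the other probe set of Gria1 and of Grik2 is the brighter and was not called. Without control replicate 2 at 24 h the count of called members was 0, with replicate 3 of lactacystin at 24 h left out it was 2, and without replicate 1 of either 24 h group it was 3. Without array design as a covariate it was 0 at 24 h and 0 at 48 h.

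The promoters of 4 of the 5 genes called lower at 24 h are shown, and for Gria1 no promoter is shown. Whether these genes share any regulation was not tested. RefSeq (GRCm38.p6) gave a promoter of 300 bases, from 250 before the transcript start to 50 after it, for 15 of the 23 member genes, among them Gabbr1 (chr17:37045716-37046015, + strand), Gabrb2 (chr11:42420190-42420489, + strand, the first of 3 entries), Gabra2 (chr5:71095800-71096099, - strand) and Grik2 (chr10:49788705-49789004, - strand). Capitals mark matches to a GC box (GGGCGG, or CCGCCC on the other strand) or a TATA box (TATAAA, or TTTATA on the other strand).
Gabbr1: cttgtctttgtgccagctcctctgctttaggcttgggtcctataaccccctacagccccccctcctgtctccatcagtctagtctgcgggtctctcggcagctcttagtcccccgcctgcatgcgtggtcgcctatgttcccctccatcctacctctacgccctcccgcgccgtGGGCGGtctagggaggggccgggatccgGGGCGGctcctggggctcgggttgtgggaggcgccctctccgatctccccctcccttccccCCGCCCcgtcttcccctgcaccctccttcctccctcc
Gabrb2: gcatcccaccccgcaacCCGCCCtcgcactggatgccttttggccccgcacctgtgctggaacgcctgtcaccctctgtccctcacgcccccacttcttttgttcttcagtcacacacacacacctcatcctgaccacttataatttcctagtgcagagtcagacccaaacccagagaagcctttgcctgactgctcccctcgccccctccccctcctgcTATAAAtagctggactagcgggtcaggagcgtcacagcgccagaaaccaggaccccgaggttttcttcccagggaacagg
Gabra2: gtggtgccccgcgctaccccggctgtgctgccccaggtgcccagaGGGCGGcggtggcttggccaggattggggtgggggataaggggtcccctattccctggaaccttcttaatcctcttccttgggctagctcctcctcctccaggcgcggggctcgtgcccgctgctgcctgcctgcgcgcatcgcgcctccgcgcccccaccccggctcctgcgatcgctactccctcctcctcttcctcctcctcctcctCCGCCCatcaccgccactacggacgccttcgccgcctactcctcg
Grik2: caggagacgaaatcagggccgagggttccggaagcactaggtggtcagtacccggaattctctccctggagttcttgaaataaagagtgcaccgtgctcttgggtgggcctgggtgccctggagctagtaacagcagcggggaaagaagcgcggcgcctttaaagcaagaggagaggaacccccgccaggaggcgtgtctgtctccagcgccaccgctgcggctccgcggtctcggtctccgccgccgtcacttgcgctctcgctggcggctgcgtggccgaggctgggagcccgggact
The Gabbr1 promoter holds 3 GC boxes, that of Gabra2 holds 2, and that of Gabrb2 holds 1 GC box and 1 TATA box, while neither motif is found in the Grik2 window. The 15 genes had 21 promoter entries. A GC box was found in 7 of these 21, against 35.7% of all 32851 promoters of this length, and a TATA box in 3 of 21, against 13.6%. The cAMP response element TGACGTCA, which reads the same on both strands, was found in 0 of the 21 and in 1.79% of all promoters. These matches describe the letters and are not binding sites.

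AMPA receptors carry most fast excitatory transmission. Gria1 was measured by 2 probe sets that differed in their change. By 92944_at it had 350, 121 and 77.1 in neurons given lactacystin for 24 h, against 554 and 212 in controls. The values 121 and 77.1, both on U74Av2, lay below the background level, which this probe set passed on 7 of 10 arrays. On each array design the treated arrays lay below the control array, while across designs the groups overlapped. The change was -0.76 ± 0.21 (adjusted p = 0.0299), or -0.62 within U74A and -0.92 within U74Av2. The other probe set, 92943_at, had 1075, 992 and 995 with lactacystin and 1424 and 1015 in controls, which did not pass the test at -0.18 ± 0.14 (adjusted p = 0.445). At 48 h 92944_at had 114, 168 and 504 with lactacystin, against 666 and 147 in controls, and the groups overlapped (-0.23 ± 0.21, adjusted p = 0.551). The call at 24 h was lost without either control array of that time (adjusted p = 0.0514 without replicate 1 and 0.351 without replicate 2) or without lactacystin replicate 1 or 3 (0.0908 and 0.0892).

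Gria2 encodes the subunit that makes AMPA receptors impermeable to calcium when its transcript is edited. Its probe set 92947_s_at gave 3797, 5003 and 4305 after 24 h of lactacystin, against 5527 and 5093 in controls. At 48 h it gave 5734, 5007 and 5037 with lactacystin, against 6034 and 6453 in controls. At both times all treated arrays lay below all control arrays, by small amounts: the change was -0.30 ± 0.11 at 24 h (adjusted p = 0.1) and -0.27 ± 0.11 at 48 h (adjusted p = 0.175), neither past the test. The other 2 shared probe sets of Gria2 stood at -0.04 and -0.25 at 24 h and at 0.05 and -0.10 at 48 h, and none passed the test; the value of 92945_at changed sign in 3 of 23 alternatives at 24 h and 4 of 23 at 48 h. Suffixes _s_at and _f_at mark probe sets that may share sequence with other transcripts, so these values are uncertain between related genes. Gria3, another AMPA subunit, had 40.8 to 130 across the 10 arrays and changes of -0.21 and 0.10 at 24 h and 48 h, and Gria4 had 4.66 to 82.4 and was not tested.

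All 4 kainate receptor probe sets had changes below 0 at both times, and 1 passed the test at 24 h; the sign of 98864_s_at at 48 h held in 21 of 23 alternatives. Grik2 encodes a pore-forming subunit. By 98863_at it had 114, 66.4 and 55.5 with lactacystin at 24 h, against 234 and 108 in controls, so the groups overlapped across the designs but not within either. The change was -0.69 ± 0.19 (adjusted p = 0.0289), with -0.86 within U74A and -0.59 within U74Av2. Its 48 h values were 54.8, 72.7 and 168 with lactacystin, against 202 and 103 in controls, a change of -0.40 ± 0.19 that did not pass the test (adjusted p = 0.212). Its other probe set, 98864_s_at, stood at -0.72 ± 0.22 at 24 h, just outside the threshold (adjusted p = 0.0501). Only 3 of 10 arrays placed 98863_at above the background level, all of the U74A design, and the call at 24 h was lost without lactacystin replicate 1 (adjusted p = 0.108) or 3 (0.071) or without control replicate 1 (0.144) or 2 (0.161).

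Grik5, which forms high-affinity kainate receptors together with other subunits, had 683, 389 and 340 with lactacystin at 24 h, against 720 and 606 in controls. After 48 h the values were 415, 414 and 746 with lactacystin, against 858 and 567 in controls. Within each design the treated arrays were the lower ones, and across designs the groups overlapped at both times. The changes of -0.42 ± 0.15 (adjusted p = 0.0923) and -0.33 ± 0.15 (adjusted p = 0.201) did not pass the test. Grik1, with 22.8 to 131 across the arrays, stood at -0.47 ± 0.24 and -0.43 ± 0.24 at 24 h and 48 h (adjusted p = 0.227 and 0.305).

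Grid1 encodes a delta receptor subunit, which belongs to the glutamate receptor family by sequence. It had 243, 277 and 306 with lactacystin at 24 h, against 379 and 365 in controls. Lactacystin for 48 h gave 227, 287 and 349, against 405 and 438 in controls. The groups did not overlap at either time, and the signal was nearly the same on both array designs. The change was -0.39 ± 0.17 at 24 h (adjusted p = 0.155) and -0.51 ± 0.17 at 48 h (adjusted p = 0.0844), so neither time passed the test by itself.

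None of the 3 tested NMDA receptor probe sets passed the test at 24 h or 48 h. Grin2c, one of the glutamate-binding subunits, had 197, 199 and 208 with lactacystin at 24 h, against 246 and 203 in controls. Grin2c had 233, 221 and 220 with lactacystin at 48 h, against 212 and 199 in controls, and was the 1 member whose treated arrays all lay above the controls. These differences were small, at -0.12 ± 0.14 (95% interval -0.44 to 0.19) and 0.12 ± 0.14 (-0.19 to 0.43). Grin2b, the subunit that prevails in the immature cortex, had 20.2 to 108 across the arrays and an imprecise change of 0.17 ± 0.32 at 24 h and -0.15 ± 0.32 at 48 h. The value within U74A was -0.52 at 24 h and that within U74Av2 0.72. Grin2d, another glutamate-binding subunit, stood at -0.14 ± 0.24 and 0.24 ± 0.24 at the 2 times, and Grin2a, the subunit that increases as the cortex matures, had 9.81 to 54.3 and was not tested. No probe set of Grin1, the obligatory subunit, was among the members.

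Grm8, a presynaptic metabotropic receptor that lowers cyclic AMP, was the only metabotropic glutamate receptor among the members. It had 56.8, 37.3 and 66.5 with lactacystin at 24 h, against 108 and 87.1 in controls, and the groups did not overlap. At 48 h it had 78.4, 74.3 and 95 with lactacystin, against 86.9 and 52.2 in controls, and they did. All 10 values were below the background level. The change was -0.57 ± 0.21 at 24 h (adjusted p = 0.103) and 0.23 ± 0.21 at 48 h (adjusted p = 0.57), and the difference between the times, 0.80 ± 0.30, did not pass the test (adjusted p = 0.22).

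Among GABA-A receptor subunits, Gabra2 encodes an alpha subunit that is common in the embryonic and early postnatal forebrain. It had 490, 334 and 413 with lactacystin at 24 h, against 616 and 689 in controls. The 48 h values were 522, 608 and 429 with lactacystin, against 611 and 685 in controls. At each time all treated arrays lay below all control arrays, at 48 h by a narrow margin. The change was -0.65 ± 0.18 at 24 h (adjusted p = 0.0315), with -0.31 within U74A and -0.84 within U74Av2, and -0.32 ± 0.18 at 48 h (adjusted p = 0.297). The call at 24 h was lost without control replicate 1 (adjusted p = 0.105) or 2 (0.255) or without lactacystin replicate 2 (0.0942) or 3 (0.0722). Gabra3, an alpha subunit of the immature cortex, had 72.9 and 123 on the U74A arrays of lactacystin and control at 24 h and 93.9 and 113 on those at 48 h, and 6.3 to 27.7 on the U74Av2 arrays, and was not tested.

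Gabrb2 encodes a beta subunit that forms part of the GABA binding site. It had 72.5, 22.4 and 16.5 with lactacystin at 24 h, against 189 and 101 in controls. Its values at 48 h were 48.4, 47.6 and 214 with lactacystin, against 154 and 55.4 in controls. At 24 h every treated array lay below both control arrays, and at 48 h the groups overlapped, with the highest value on the U74A array of the treated group. The change of -1.21 ± 0.23 at 24 h was the most negative among the 22 members (adjusted p = 0.00483), and was -1.08 within U74A and -1.37 within U74Av2. At 48 h it stood at 0.06 ± 0.23 (adjusted p = 0.917), and its sign was the same in 17 of 22 alternatives. The signal was above the background level on 3 arrays, all U74A, and without control replicate 2 the call at 24 h was lost (adjusted p = 0.121).

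Gabrb1, another beta subunit, had 383, 584 and 581 with lactacystin at 24 h, against 666 and 679 in controls. After 48 h it had 702, 681 and 756 with lactacystin, against 976 and 934 in controls. The groups did not overlap at either time, and both the treated and the control arrays of 48 h lay above those of 24 h. The change was -0.41 ± 0.16 (adjusted p = 0.117) at 24 h and -0.43 ± 0.16 (adjusted p = 0.123) at 48 h. The gamma subunits, which anchor the receptor at synapses and shape its response to benzodiazepines, were represented by Gabrg1 and Gabrg3. Gabrg1 had 69.8, 59.8 and 32.9 with lactacystin at 24 h, against 112 and 50.1 in controls. At 48 h Gabrg1 had 57.7, 74.7 and 147 with lactacystin, against 122 and 55.3 in controls, so its groups overlapped at both times. Neither Gabrg1 (-0.24 ± 0.23 and 0.16 ± 0.23) nor Gabrg3 (-0.42 ± 0.21 and -0.05 ± 0.21) passed the test at 24 h or 48 h.

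Gabbr1 was lower at both times. GABA-B receptors couple GABA to potassium and calcium channels through G proteins, and this subunit pairs with Gabbr2, for which no probe set was among the members. It had 1420, 1961 and 1883 with lactacystin at 24 h, against 2146 and 2853 in controls. For 48 h the values were 1822, 2196 and 1698 with lactacystin, against 2434 and 3265 in controls. All 6 treated arrays lay below the control arrays of their time, and all 10 arrays were above the background level. The change was -0.56 ± 0.11 at 24 h (adjusted p = 0.00642) and -0.63 ± 0.11 at 48 h (adjusted p = 0.00519), a signal of 0.677 and 0.648 times that of controls. Within U74A it was -0.58 and -0.51 at the 2 times, and within U74Av2 -0.56 and -0.70. Without control replicate 2 of the same time the call was lost (adjusted p = 0.0881 at 24 h and 0.0819 at 48 h).

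Glra1, an alpha subunit of the glycine receptor, had 241, 213 and 209 with lactacystin at 24 h, against 284 and 238 in controls. At 48 h it had 192, 174 and 254 with lactacystin, against 240 and 211 in controls. The groups overlapped at both times, and the changes of -0.17 ± 0.14 and -0.08 ± 0.14 did not pass the test (adjusted p = 0.463 and 0.791).

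**Figure D2:**
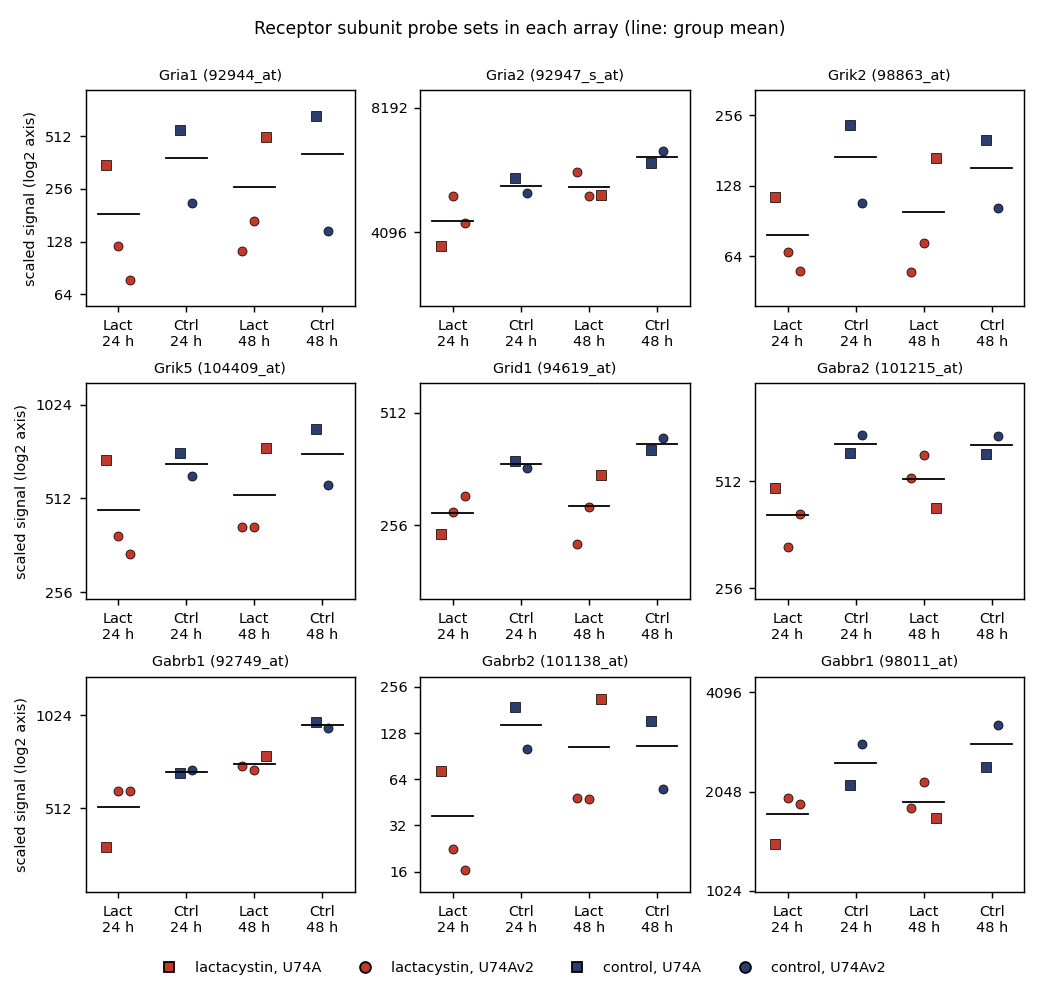
Scaled signal (y axis, log2 scale, with a range of its own in each panel) of 9 receptor probe sets in each array, for lactacystin (red) and control (blue) at 24 h and 48 h; squares are U74A arrays, circles U74Av2 arrays and lines group means. Gabbr1, Gabrb1, Grid1, Gabra2 and Gria2 (92947_s_at) had all treated arrays below the controls at both times, while Gabrb2 did so at 24 h only. U74A arrays lay above U74Av2 arrays of the same group for Gria1, Grik2, Grik5 and Gabrb2.

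At 48 h 1 of the 22 tested members was called, Gabbr1, which was lower, and 0 were higher. Of all 6984 tested probe sets 10.3% were called at 48 h, 3.57% lower and 6.77% higher. The members' changes ran from -0.63 to 0.24 log2 with a median of -0.13, against 0.04 over all tested probe sets. Of the members 15 were below 0 and 7 above, where 3078 of the 6984 tested probe sets were below 0 and 3906 above. With arrays scaled by their median instead, the 48 h median moved to -0.11 over all probe sets and to -0.26 for the members. Under this scaling 4 members were called lower, and so were 636 of the 6984 tested probe sets, in place of 249. The share of lower calls in the whole table was 69.1% in place of 34.5%. Without control replicate 2 at 48 h the count was 0, and without lactacystin replicate 1 at 24 h or replicate 3 at 48 h it was 2.

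**Figure D3:**
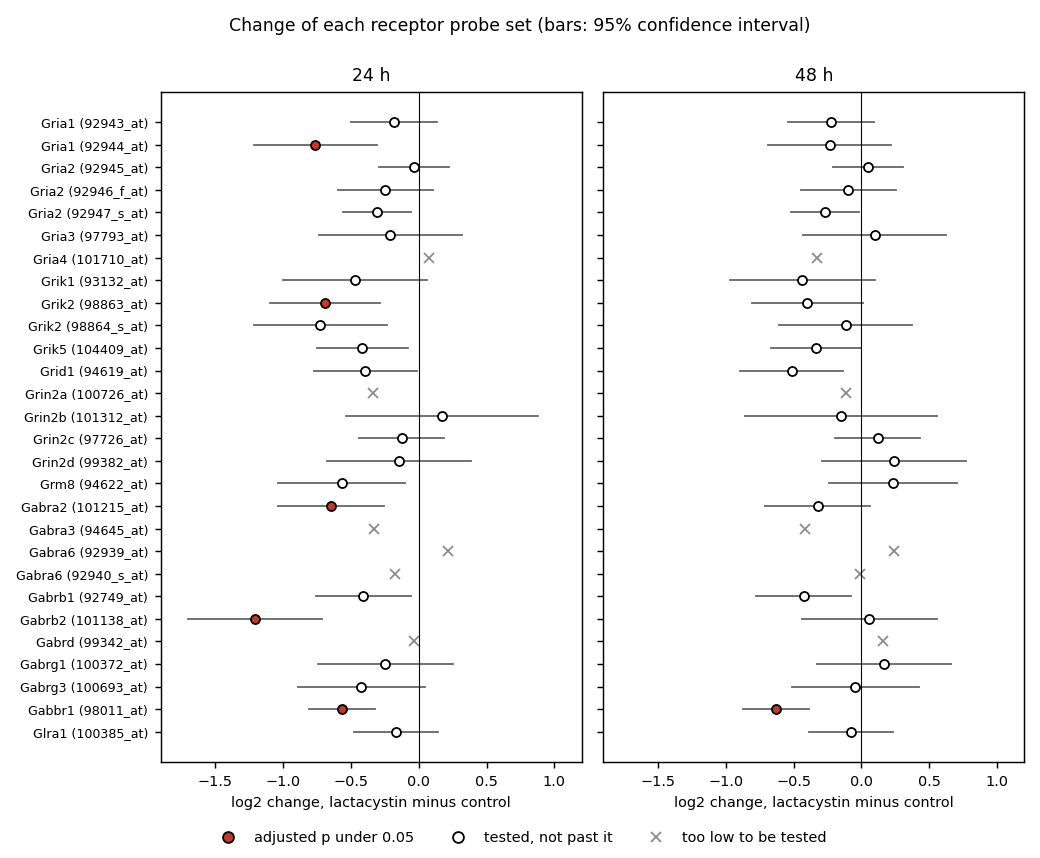
Change of each receptor probe set (x axis, log2 signal of lactacystin minus control) at 24 h and at 48 h, with 95% confidence intervals from limma; filled points passed an adjusted p of 0.05, and crosses, drawn with no interval, are the 6 probe sets too dim to be tested. Of the 22 tested, 21 points lie left of 0 at 24 h and 15 at 48 h, and Gabbr1 is the one filled at both times.

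Counting arrays rather than fitted values, all treated arrays lay below all control arrays for 9 of 22 members at 24 h, namely Gria2 (92946_f_at and 92947_s_at), Grid1, Grm8, Gabra2, Gabrb1, Gabrb2, Gabrg3 and Gabbr1, against 18.9% of all tested probe sets. For 0 members all treated arrays lay above the controls, against 17.2%. At 48 h the count was 5 lower (Gria2 by 92947_s_at, Grid1, Gabra2, Gabrb1 and Gabbr1), against 9.87%, and 1 higher (Grin2c), against 16.6%. The changes within U74A and within U74Av2 were both negative for 18 of 22 members at 24 h and 9 of 22 at 48 h, against 38.8% and 28.0% of all tested probe sets.

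Fitted over both times, with time and array design as covariates, 7 of 22 members were lower and 0 higher, where 17% of all tested probe sets were called, 7.52% lower and 9.52% higher. Of the 22 members Gabbr1 was lower by the largest amount, at -0.59 ± 0.08 (adjusted p = 0.000536), and was called in all 22 alternatives of this comparison. Grik2 (98863_at) stood at -0.54 ± 0.14 (adjusted p = 0.0183), Gabra2 at -0.49 ± 0.13 (0.0275), Grid1 at -0.45 ± 0.12 (0.0258), Gabrb1 at -0.42 ± 0.12 (0.0266), Grik5 at -0.37 ± 0.11 (0.0358) and Gria2 (92947_s_at) at -0.29 ± 0.08 (0.0343). For Gria2, Grid1, Gabra2, Gabrb1 and Gabbr1 the arrays of the 2 conditions did not overlap at either time. Gabrb2, at -1.21 at 24 h and 0.06 at 48 h, was not called over both times (-0.57 ± 0.24, adjusted p = 0.131). The count was 2 without either control array of 24 h, 3 without lactacystin replicate 1 and 4 without replicate 3 at 24 h, and 4 without either control array of 48 h, and each of the 6 other than Gabbr1 lost its call in at least 3 of the 10 fits with 1 array left out.

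Between 48 h and 24 h of lactacystin, 1 of 22 members was called, Gabrb2, higher at 48 h by 0.84 ± 0.20 (adjusted p = 0.0217), where 11.6% of all tested probe sets were called, 6.19% higher and 5.38% lower. Its values were 48.4, 47.6 and 214 at 48 h and 72.5, 22.4 and 16.5 at 24 h, which overlap; on U74A the difference was 1.23 and on U74Av2 0.64. The call was lost without any 1 of lactacystin replicates 1, 2 and 3 at 24 h (adjusted p = 0.0625, 0.0512 and 0.0738) or replicate 3 at 48 h (0.104). Gabrb1, with 702, 681 and 756 at 48 h and 383, 584 and 581 at 24 h, stood at 0.47 ± 0.14 just outside the threshold (adjusted p = 0.057). Of the 22 members 20 had a change above 0, as did 3925 of the 6984 tested probe sets. The members had a median of 0.17 against 0.04 over all tested probe sets. Under median scaling the share of lower calls in this comparison was 70.2% in place of 46.5%.

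In controls between 48 h and 24 h, limma called 0 of 22 members and 0% of all tested probe sets. At an unadjusted p below 0.05 there were 391 of the 6984 probe sets and 1 member, Gabrb1 (0.49 ± 0.17, adjusted p = 0.883). The test of the effect at 48 h minus that at 24 h called 0 of 22 members, where 1.23% of all tested probe sets were called (0.816% lower and 0.415% higher), and 2 members, Gabrb2 and Grm8, had an unadjusted p below 0.05. For Gabrb2 this difference was 1.26 ± 0.32 (adjusted p = 0.0815, and 0.0719 to 0.907 in the alternatives). No member was called in any of the alternatives of these 2 comparisons. The comparisons at 24 h, at 48 h and between times share arrays, so their values are given side by side and not as separate evidence.

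Other genes of the same synapses were read from 3 lists. Of 16 measured genes for receptor scaffolds and trafficking, 1 was higher at 24 h and 0 lower, with a median of -0.10 log2. It was Gabarapl1, of the GABA-A receptor-associated protein family that also acts in autophagy, at 4495 with lactacystin against 2704 in controls on average (0.67 ± 0.14, adjusted p = 0.00908). At 48 h 1 of 16 was lower, Lin7b, a scaffold that binds receptor complexes, at 114 with lactacystin against 291 in controls (-1.13 ± 0.18, adjusted p = 0.0028). Of 9 genes for glutamate and GABA synthesis and transport, 1 was lower at 24 h, the neuronal glutamate transporter Slc1a1 (-0.46 ± 0.14, adjusted p = 0.0462). At 48 h 2 of 9 were lower, Slc1a1 (-0.65 ± 0.14, adjusted p = 0.0143) and the vesicular GABA transporter Slc32a1 (-1.07 ± 0.25, adjusted p = 0.0189). Of 8 tested genes for other ligand-gated channels, 1 was lower at 24 h, the glycine receptor beta subunit Glrb, which binds the scaffold gephyrin (-0.63 ± 0.14, adjusted p = 0.0108), and 1 was higher at 48 h, the ATP receptor P2rx4 (1.03 ± 0.25, adjusted p = 0.0222).

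Some neuron markers were also lower. At 24 h 4 of 10 were called lower (Syt1, Elavl3, Dcx and Stmn2) and 0 higher, and 2 of the 10 had a change above 0. The median of the 10 was -0.55 log2, against -0.40 for the receptor probe sets. The summed signal of the 10 markers was 15261 to 17658 with lactacystin, against 23257 to 27597 in controls. At 48 h 2 of 10 were lower (Snap25 and Stmn2), with a median of -0.40 and a summed signal of 17967 to 25239, against 27327 to 29441 in controls. Of 7 tested markers of GABAergic neurons 2 were lower at 24 h and 3 at 48 h, and of 3 markers of excitatory neurons 1 and 2 were lower. Astrocyte, microglia and fibroblast or mural markers included 3, 3 and 2 higher genes at 48 h of 7, 6 and 6 tested, and 1 of each list was higher at 24 h, where 3 astrocyte markers were lower. In RNA of whole cultures fewer neurons and less receptor RNA per neuron cannot be told apart, and the part of a changed share of neurons in the receptor values was not tested.

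**Figure D4:**
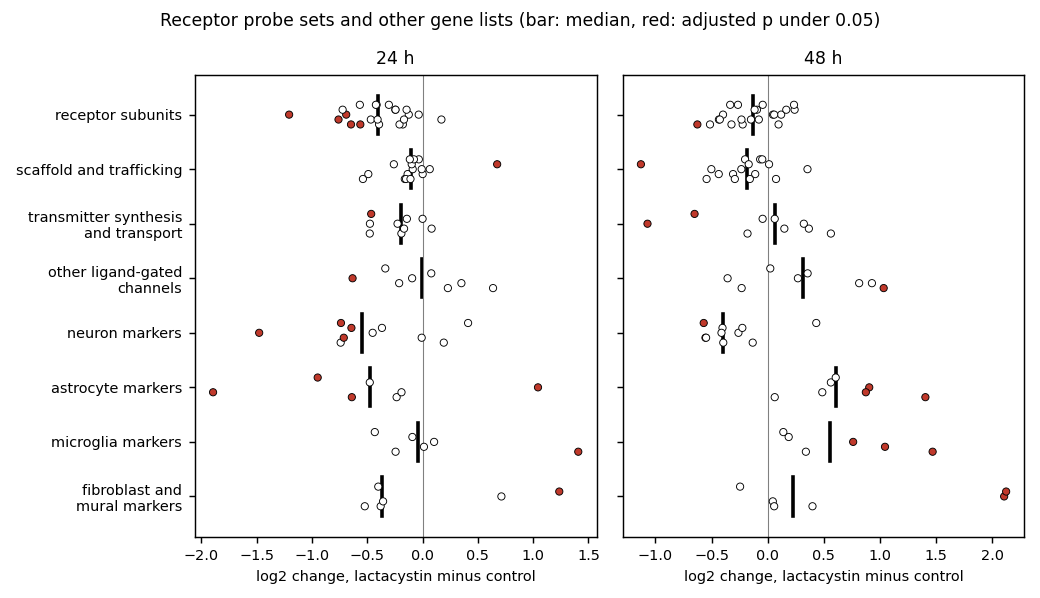
Change of each tested receptor probe set and of each tested gene of 7 other lists (x axis, log2 signal of lactacystin minus control) at 24 h and at 48 h; bars are medians, and red points passed an adjusted p of 0.05. The medians of the receptor probe sets and of the neuron markers lay at -0.40 and -0.55 at 24 h and at -0.13 and -0.40 at 48 h.

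Several members are neighbours in the genome. In the RefSeq order of protein-coding genes Gabrg1 lies next to Gabra2 on chromosome 5, and Cox7b2 and Gabra4 lie between Gabra2 and Gabrb1. On chromosome 11 Gabra6 lies next to Gabrb2, and Nmur2 alone lies between Glra1 and Gria1. In the chromosome 5 cluster, changes at 24 h were -0.24 for Gabrg1, -0.65 for Gabra2 and -0.41 for Gabrb1, and at 48 h 0.16, -0.32 and -0.43. Of these values that of Gabra2 at 24 h passed the test. Gabra6, the neighbour of Gabrb2, was too dim to be tested.

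On U74Av2 alone there were 2 further probe sets that met the rule. One for Grik5 (162074_r_at) had 106 and 116 with lactacystin at 24 h, against 167 in the control, and 177 and 197 with lactacystin at 48 h, against 122 in the control. It was thus lower with lactacystin at 24 h and higher at 48 h, while the shared Grik5 probe set was lower at both times on U74Av2. One for Gria2 (162076_r_at) had 0.0913 to 5.87 on all 6 arrays. With 1 control array a time these values were not tested.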

How the data were processed

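RNA of 10 samples was measured on Affymetrix arrays, 1 per sample. The authors deposited intensities, with a single linear signal for each probe set. Per the submitters' processing notes MAS5 was used, and its version and further steps are not given in the sources used here. Median deposited signals ran from 159.0 to 235.1 over the shared probe sets, and precision is limited by how many arrays there were. The largest correlation between 2 arrays was 0.990, and no duplicated library was found.

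Groups and replicate numbers follow the sample titles. The 66 control probe sets were left out, and each array was scaled to a trimmed mean of 500 over the 9977 shared probe sets (2% trimmed at each end). After adding a pseudocount of 32, log2 was taken. The dimmest 30% by mean signal (up to a scaled signal of 54.7) were left out, and 6984 were tested. Tests used limma 3.58.1 in R 4.3.3 (lmFit, eBayes with trend, two-sided), with the 4 groups and array design as terms (5 residual degrees of freedom) or, over both times, condition, time and design (6). Simulated data with known changes and independent noise were used to test the fits. The share recovered is not given here, so this does not show the power for changes of the size reported.

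All members may be named. Values on every array are given for members called in any comparison and for the brightest probe set of each family. Genes called at 24 h or 48 h are named for the lists of synapse genes and for the neuron markers. For the other marker lists they are given as counts. The members and lists were chosen with earlier results of these data known. Gene names come from the platform's annotation and were brought up to date with RefSeq, and no array coordinates are given. Alternatives were other pseudocounts, scalings, filters, covariates and variance models, U74Av2 alone, the 2 groups compared alone, and each array left out.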

Additional observations from a re-analysis of the deposited data

How the results depend on the processing

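No change of a called member reversed its sign under any alternative, and Gabbr1 over both times kept its call in all 22. At 24 h the 5 called members became 2 with no filter on dim probe sets, 0 without the array design covariate and 3 with U74Av2 arrays alone, and 0 to 6 with 1 array left out. At 48 h the 1 called member became 4 under median scaling, 2 under quantile normalization and 0 without the design covariate, and 0 to 2 with 1 array left out. Between 48 h and 24 h of lactacystin the 1 called member became 0 without the design covariate and 0 with U74Av2 alone, and 0 to 2 with 1 array left out. Over both times the 7 became 1 without the design covariate and 2 with U74Av2 alone, and 2 to 7 with 1 array left out. The causes were not tested. In the whole table the number of calls without the design covariate was 248 at 24 h (1038 with it), 110 at 48 h (722), 138 between times under lactacystin (808), 2 for the difference of effects (86) and 493 over both times (1190); with U74Av2 alone they were 558 at 24 h, 388 at 48 h, 12 for the difference and 524 over both times. With only the 2 groups of 48 h fitted, 440 were called at that time. For the difference of effects the calls were 168 under median scaling, 48 with no filter and 36 without a variance trend. With 1 array left out the calls ranged from 308 to 1107 at 24 h, 209 to 826 at 48 h, 329 to 831 between times under lactacystin, 0 to 2 between times in controls, 5 to 186 for the difference (186 without lactacystin replicate 1 at 24 h) and 759 to 1151 over both times. Under median scaling 60.8% of the calls over both times were lower, against 44.1%, and 87.5% of those for the difference, against 66.3%.

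With the replicate number as a block, 2 members were called at 24 h and 3 over both times, with 780 and 747 calls in the whole table. Deviations of same-numbered arrays from their group means correlated at 0.66 and 0.52 at 24 h and at -0.61 and 0.46 at 48 h, where the arrays numbered 1 were of different designs. With array design taken out the correlations were -0.27 and -0.20 at 24 h and 0.09 and -0.08 at 48 h. At 24 h both arrays numbered 1 were U74A and both numbered 2 were U74Av2. Taking out the design there also takes out any difference between the numbers. These correlations therefore cannot show whether the numbers pair the samples, and the main fits did not use them as pairs. The few arrays, 2 controls at each time, and signals below the background level for 12 of 28 members limit what these data can show.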
